A study of Mus musculus with 9 samples.

Results

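Interferon stimulated genes are transcribed when a cell senses interferon. A list of 41 of them, chosen by name, was followed in CD4 T cells that carry ICOS (ICOS+) and were sorted out of MC38 tumours. All 41 were among the 45808 genes of the count table. MC38 is a line of mouse colon carcinoma cells and C57BL/6J was the strain of every mouse, and ICOS is a costimulatory receptor carried by activated T cells. Tumours were taken 12 days after the tumour cells were injected. The 3 groups were control mice, mice given an antibody against CTLA-4 and mice given an antibody against PD-1, with 3 libraries each and 1 mouse per library. CTLA-4 and PD-1 are inhibitory receptors of T cells. Not given in the sources used here are the treatment of the control mice, the antibody clones and doses, the age of the mice and how many cells were sorted. Values are CPM, the count of a gene scaled to 1000000 gene counts of its library, and are given for replicates 1, 2 and 3 of a group in that order, with means ± SD over the 3 mice.

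Type I interferons signal through the receptor chains IFNAR1 and IFNAR2 and the kinases JAK1 and TYK2, which activate STAT2 and lead to a complex with IRF9, ISGF3, that binds the interferon stimulated response element (ISRE) in gene promoters. Interferon gamma, made by activated T cells themselves, signals through IFNGR1 and IFNGR2 to the gamma activated site (GAS) of its target genes and induces IRF1. The induced genes sense viral nucleic acid, block viral replication, tag proteins with the ubiquitin-like ISG15 or act in cell-autonomous defence. In tumours, type I interferon and interferon gamma are both part of the T cell response.

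Promoters of interferon stimulated genes can carry the elements that the interferon transcription factors read. The 5 shown all hold a match and come from genes that differ in how widely they were detected. Igtp and Irf1 reached 5 CPM in all 9 libraries, Isg15 and Oas1a in 3 and Rsad2 in 4. RefSeq windows of GRCm38.p6, from 250 bases before to 50 bases after an annotated start, were matched by symbol for 32 of the 41 genes. The ISRE core was searched as GAAANNGAAA on either strand (TTTCNNTTTC on the other) and GAS as TTCNNNGAA, which reads the same on both strands. Matches of the 2 motifs overlap in the window of Bst2 only. An ISRE core lay in the window of 16 of the 32 genes (50%), against 1079 of 27025 genes with a window (3.99%), and a GAS match in 9 of the 32 (28.1%), against 9.55% of all genes. A match is a match of letters and not a measured binding site. Each stretch below is the 150 bases before the start, 5′ to 3′ on the strand of the gene, with motif matches in capitals.
Igtp, chr11:58199406-58199555, plus strand, a GAS followed by an ISRE core: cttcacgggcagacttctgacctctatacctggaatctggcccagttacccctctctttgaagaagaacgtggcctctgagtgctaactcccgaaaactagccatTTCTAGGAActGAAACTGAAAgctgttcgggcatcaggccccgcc
Irf1, chr11:53769864-53770013, plus strand, a GAS: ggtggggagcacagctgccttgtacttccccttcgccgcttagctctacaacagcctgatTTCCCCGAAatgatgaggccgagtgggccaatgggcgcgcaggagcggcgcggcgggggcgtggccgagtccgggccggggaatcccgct
Isg15, chr4:156200819-156200968, minus strand, 3 overlapping ISRE cores: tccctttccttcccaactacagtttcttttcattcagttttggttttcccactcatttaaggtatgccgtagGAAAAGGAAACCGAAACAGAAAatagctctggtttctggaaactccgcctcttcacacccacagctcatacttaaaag
Oas1a, chr5:120907526-120907675, minus strand, a GAS followed by 2 overlapping ISRE cores: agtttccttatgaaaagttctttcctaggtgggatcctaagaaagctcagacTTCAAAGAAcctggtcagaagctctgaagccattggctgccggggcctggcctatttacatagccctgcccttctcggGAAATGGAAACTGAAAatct
Rsad2, chr12:26456453-26456602, minus strand, an ISRE core read on the other strand: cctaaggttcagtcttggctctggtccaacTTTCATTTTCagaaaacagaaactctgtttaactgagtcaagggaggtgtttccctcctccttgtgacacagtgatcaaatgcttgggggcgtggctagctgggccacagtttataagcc
Of the genes at 5 CPM or more in all 9 libraries, 3 of the 6 with a window held an ISRE core and 3 of 6 a GAS match. Trim25, which was among these 6, held neither. Of those at 5 CPM or more in 1 to 3 libraries the counts were 3 of 8 and 2 of 8. Among the interferon-inducible GTPases, 4 of 5 windows held an ISRE core.

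Gene counts summed to 25530333 to 41508589 per library, so that 3 counts, taken as the floor for a gene read at 0, are worth 0.0723 to 0.118 CPM. The libraries were made from little RNA with a single-cell amplification kit, and they differed in how many genes they held. At 5 CPM or more there were 5124 to 6309 genes in 7 libraries, 4209 in anti-PD-1 replicate 2 and 2662 in anti-CTLA-4 replicate 2. The sorted cell type was checked with 10 T cell markers, of which 9 or 10 were at 5 CPM or more in every library but anti-CTLA-4 replicate 2, where it was 7. Their sum was 7719 to 8769 CPM in controls, 3099 to 8470 CPM under anti-CTLA-4, the lowest in replicate 2, and 9523 to 9957 CPM under anti-PD-1. Cd4 stood at 24.5 CPM and Cd3e at 0.590 CPM in anti-CTLA-4 replicate 2. The sum of 16 macrophage and monocyte markers was 279 to 872 CPM in controls, 575 to 4765 CPM under anti-CTLA-4 and 276 to 881 CPM under anti-PD-1, and again the extreme value was that of replicate 2. Fibroblast markers (8 genes) summed to 1597 CPM in that library and to 31.4 to 378 CPM elsewhere. Cd8a, the 5 natural killer markers and Siglech, a plasmacytoid dendritic cell gene, were at 0 in all 9 libraries. The other CD8 marker, Cd8b1, was at 125 CPM in anti-PD-1 replicate 3 and at 0.118 CPM or less elsewhere. Of 10 dendritic cell markers 5 were at 0 in all 9 libraries, and the sum of the 10 was 7.49 to 102 CPM in controls, 76.3 to 284 CPM under anti-CTLA-4 and 25.1 to 114 CPM under anti-PD-1. Results that rest on anti-CTLA-4 replicate 2 are given with and without it.

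The list was unevenly detected. In the controls 27, 36 and 28 of the 41 genes reached 5 CPM, under anti-CTLA-4 30, 14 and 20, and under anti-PD-1 34, 24 and 32. The means were 30.3 ± 4.93, 21.3 ± 8.08 and 30.0 ± 5.29 genes, so the ranges of the 3 groups overlapped. As a share of the list this is 65.9%, 87.8% and 68.3% in controls, 73.2%, 34.1% and 48.8% under anti-CTLA-4 and 82.9%, 58.5% and 78.0% under anti-PD-1. The same share over the 7858 genes that passed the filter for testing was 71.0%, 71.4% and 69.8%, then 63.0%, 31.2% and 60.1%, then 63.8%, 49.7% and 67.7%. The 2 libraries with the fewest genes overall were therefore also the lowest of their groups for the interferon list. The list exceeded the tested genes by the widest margin in anti-PD-1 replicate 1 and in Control replicate 2, and fell below them in anti-CTLA-4 replicate 3 and in Control replicates 1 and 3. The part that the number of genes in a library plays in the list's counts was not tested. In cells sorted in bulk, fewer cells expressing a gene and less of its RNA per cell cannot be told apart.

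**Figure D1:**
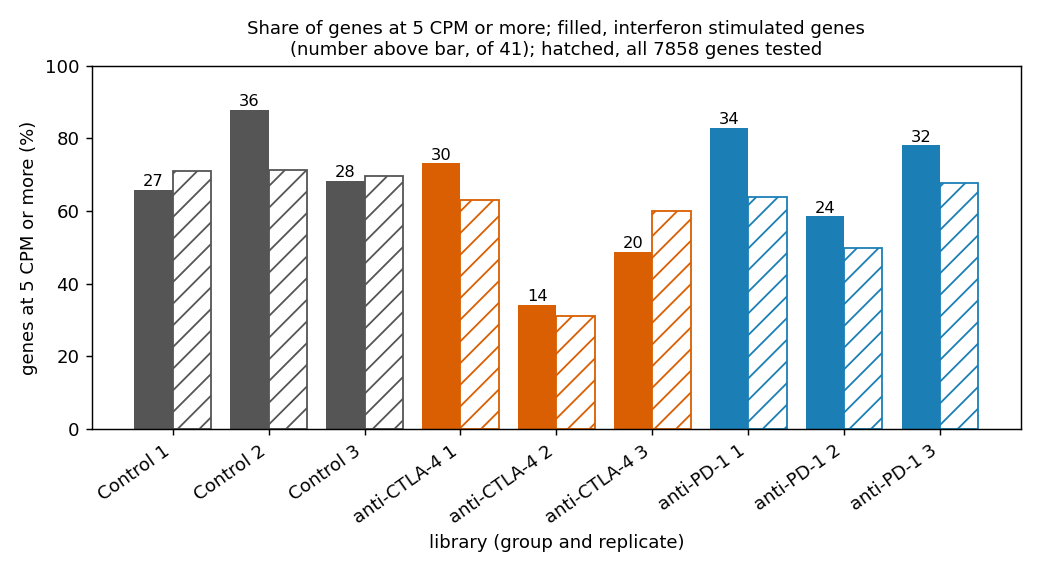
Interferon stimulated genes at 5 CPM or more in each library, as a percent of the 41 listed genes, beside the same percent over the 7858 tested genes. Anti-CTLA-4 replicate 2 is the lowest library on both measures, at 34.1% and 31.2%, and Control replicate 2 holds the largest share of the list, 87.8%.

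The summed level of the 41 genes was 3613, 5708 and 4750 CPM in controls, 4372, 4616 and 3591 CPM under anti-CTLA-4 and 4630, 5246 and 5778 CPM under anti-PD-1. The group means were 4690 ± 1049, 4193 ± 535 and 5218 ± 575 CPM. In unscaled CPM all anti-PD-1 libraries lay above all anti-CTLA-4 libraries, the nearest 2 at 4630 and 4616 CPM. The fit below scales with factors that raise anti-CTLA-4 replicate 2, at 4616 CPM (0.407), and lower anti-PD-1 replicate 1, at 4630 CPM (1.16). The order therefore holds for unscaled CPM only. Single genes were read either well or hardly at all. Of 369 values (41 genes in 9 libraries), 245 were at 5 CPM or more, 113 below 1 CPM and only 11 in between. Values below 1 CPM made up 30.6% in the list and 34.4% among the tested genes. Within 1 group, a gene could be below 1 CPM in one mouse and at 20 CPM or more in another: this held for 11 genes of the list in controls (26.8%, against 33.4% of tested genes), 18 under anti-CTLA-4 (43.9%, against 51.9%) and 15 under anti-PD-1 (36.6%, against 43.3%).

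**Figure D2:**
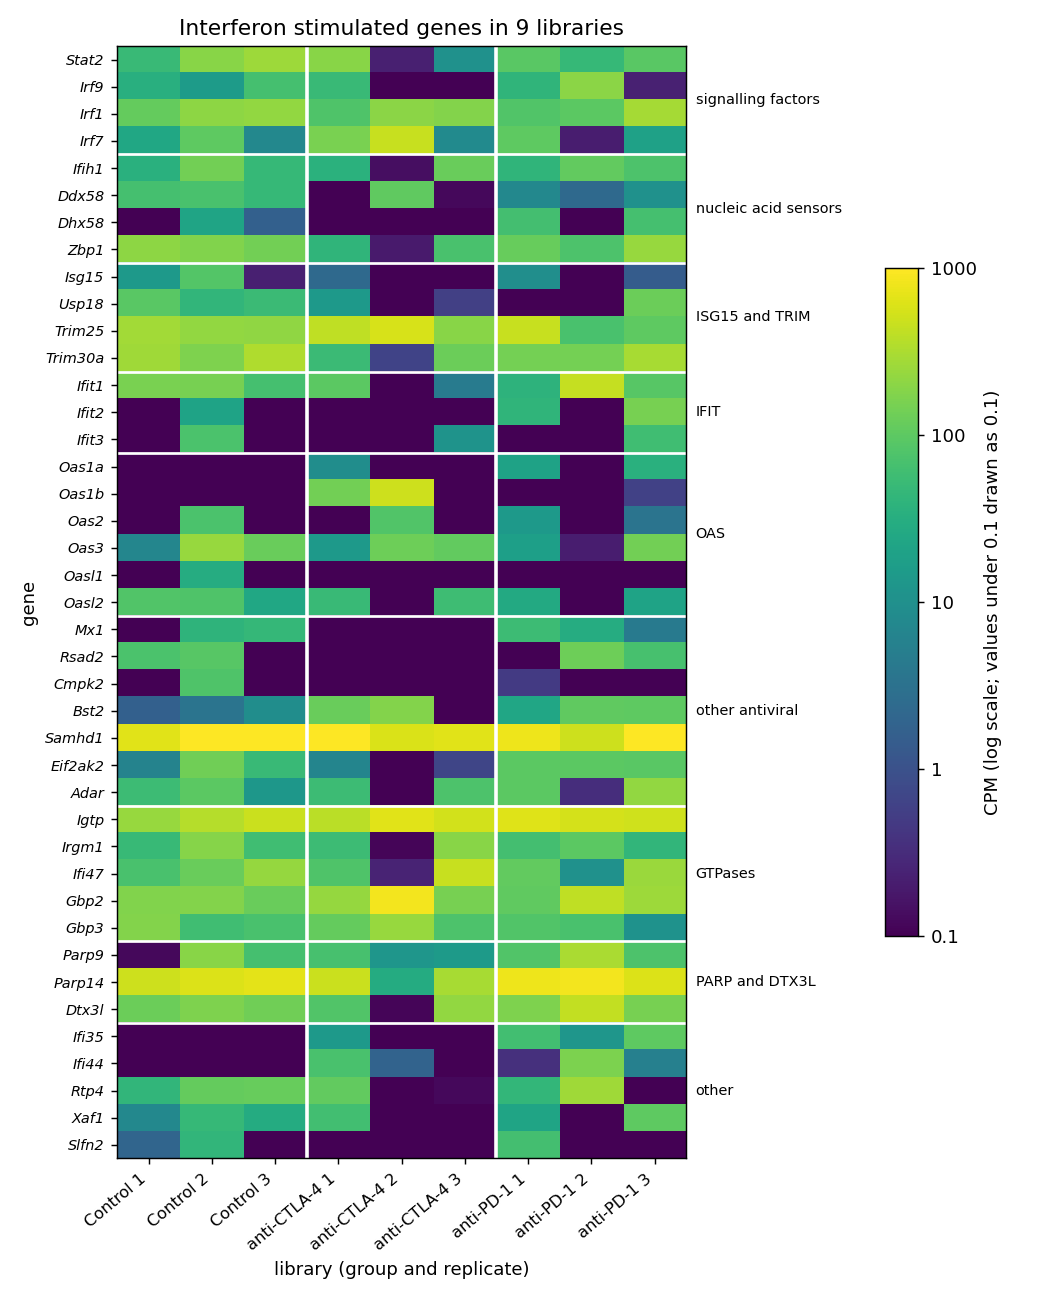
Level of each of the 41 interferon stimulated genes in each of the 9 libraries on a log scale of CPM, with genes in rows grouped by role and libraries in columns by group; values under 0.1 CPM are drawn as 0.1. Rows of GTPases and of PARP and DTX3L genes are filled in nearly every library, while OAS and IFIT rows and the column of anti-CTLA-4 replicate 2 are broken by values near 0.

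The number of libraries in which a gene reached 5 CPM was graded, from all 9 down to 1. At 5 CPM or more in all 9 libraries stood 7 genes, Irf1, Trim25, Samhd1, Igtp, Gbp2, Gbp3 and Parp14 (17.1% of the list, against 13.7% of tested genes). A further 10 reached it in 8 libraries and 4 in 7, while 11 reached it in 1 to 3 libraries, among them Isg15, Ifit2, Ifit3, Oas1a, Oas1b, Oas2 and Ifi44. At least 2 of 3 libraries held 29 of the 41 genes at 5 CPM in controls, 21 under anti-CTLA-4 and 33 under anti-PD-1, against 73.5%, 51.7% and 61.2% of tested genes. All 3 libraries held 25, 10 and 19 of them, against 45.9%, 20.03% and 32.4% of tested genes. The spread over the 9 libraries, as the coefficient of variation of unscaled CPM, was 27.6% for Igtp and 32.4% for Samhd1, where the median tested gene had 126%. Only 0.687% and 1.27% of tested genes varied less than these 2. It was 45.4% for Irf1, 47.2% for Parp14, 59.5% for Trim25, 69.3% for Gbp3 and 85.3% for Gbp2. The factors of the fit below are not in these spreads. That of anti-CTLA-4 replicate 2 (0.407) would raise Igtp in its highest library, so the small spreads are given for unscaled CPM only.

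**Figure D3:**
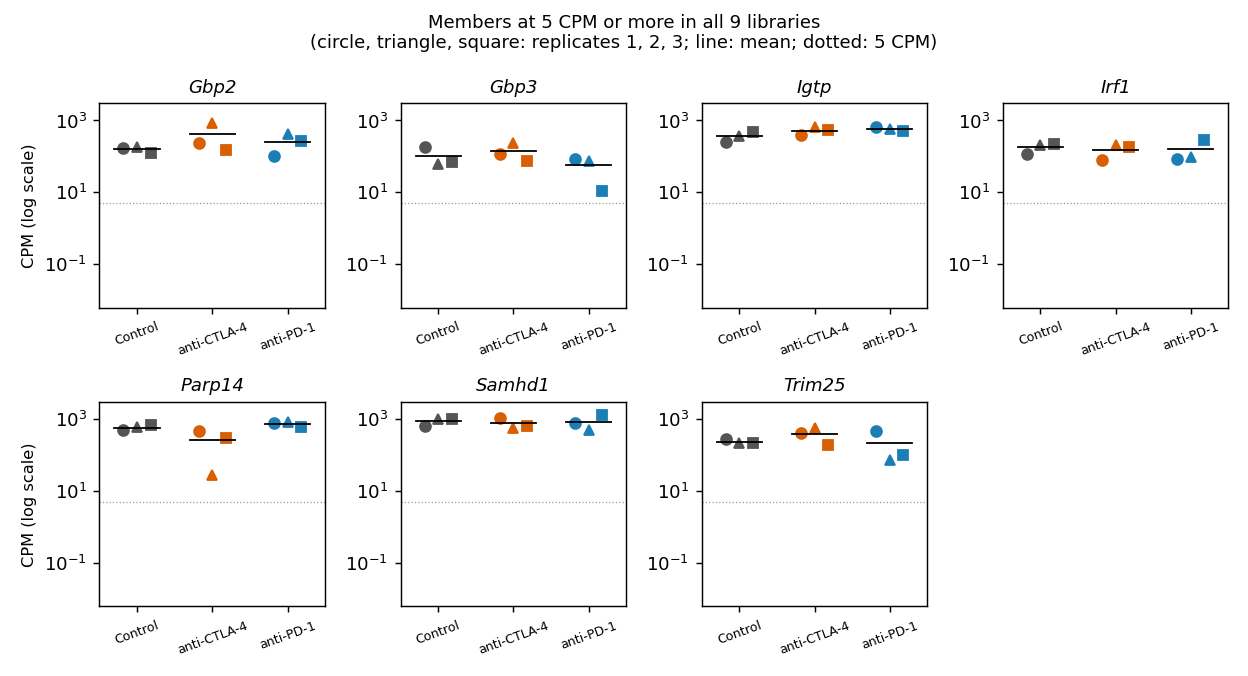
CPM of the 7 interferon stimulated genes that reached 5 CPM in all 9 libraries, on a log axis, by group and replicate, with the group mean as a line and 5 CPM dotted. In unscaled CPM Igtp and Samhd1 lie in narrow bands, Igtp from 244 to 651 CPM, while Parp14 has one low value, 28.7 CPM in anti-CTLA-4 replicate 2.

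Group differences were tested with edgeR's quasi-likelihood test over the whole table, with p adjusted by Benjamini and Hochberg's method and called at 0.05, and 39 of the 41 genes passed its filter on low counts (Oasl1 and Cmpk2 did not). The fit scales libraries with TMM factors, which raise anti-CTLA-4 replicate 2 (factor 0.407), so a fitted log2 change can differ in sign from the change of the mean CPM, as it does for Irf1 and Samhd1 under anti-CTLA-4. Gene positions below are those of GRCm38. Only 1 gene of the list, Oas1b, passed the threshold. It was higher under anti-CTLA-4 than in controls, where 0.369% of all tested genes were called, every one of them higher, and higher under anti-CTLA-4 than under anti-PD-1, where 0.827% were called, 0.814% higher and 0.0127% lower. With anti-PD-1 against controls 0 of the 39 were called, against 0.0764% of all tested genes, 0.0382% in each direction. There 2 of the 39 had an unadjusted p under 0.05 (5.13%, against 6.01% of tested genes) and DESeq2 called 3. The spread between mice was wide: the biological coefficient of variation that edgeR fitted was 1.84, and a p that misses the threshold does not show that the groups were alike. As a second description, genes were counted for which the 3 values of one group all lay above or all below those of the other. These were 5 of 39 for anti-CTLA-4 against controls (12.8%, against 11.9% of tested genes), 5 for anti-PD-1 against controls (12.8%, against 10.8%) and 7 for anti-CTLA-4 against anti-PD-1 (17.9%, against 9.76%). The 3 comparisons share their groups and are not independent of each other.

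The transcription factors that carry the interferon signal were present in most libraries, at 5 CPM or more in 12 of 12 values in controls, 9 of 12 under anti-CTLA-4 and 10 of 12 under anti-PD-1. Irf1, which is induced by interferon gamma (ENSMUSG00000018899, chromosome 11, 53770014 to 53778374), was read at 114, 213 and 227 CPM in the controls, 80.1, 204 and 178 CPM under anti-CTLA-4 and 83.2, 96.9 and 292 CPM under anti-PD-1. No library stood apart, and the groups overlapped. Its fitted log2 change was 0.73 (SE 1.53) under anti-CTLA-4 and -0.05 (SE 1.53) under anti-PD-1, against controls, both with adjusted p = 1. Stat2, a subunit of ISGF3, had 52.2, 197 and 264 CPM in the controls, 195, 0.225 and 10.5 CPM under anti-CTLA-4 and 95.2, 48.4 and 95.9 CPM under anti-PD-1. One library set it apart, anti-CTLA-4 replicate 2 at 0.225 CPM, and its change against controls was -1.18 (SE 2.07, adjusted p = 1) under anti-CTLA-4. Irf7, the factor that amplifies type I interferon production, ran to 24.2, 102 and 7.32 CPM in the controls, 157, 468 and 8.17 CPM under anti-CTLA-4 and 100.4, 0.212 and 19.1 CPM under anti-PD-1. Here anti-CTLA-4 replicate 2 was the highest library instead, and the groups overlapped (adjusted p = 0.435 against controls and 0.341 against anti-PD-1). Irf9, the DNA-binding subunit of ISGF3, ranged from 0.0281 to 202 CPM and was below 1 CPM in 3 libraries.

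Sensors of foreign or misplaced nucleic acid were at 5 CPM or more in 10 of 12 values in controls, 5 of 12 under anti-CTLA-4 and 10 of 12 under anti-PD-1. Zbp1, which senses Z-form nucleic acid and can start cell death, was read at 207, 177 and 138 CPM in the controls, 41.5, 0.197 and 70.0 CPM under anti-CTLA-4 and 118, 77.1 and 242 CPM under anti-PD-1. All 3 anti-CTLA-4 values lay below all 3 values of each other group (means 174 ± 34.6, 37.2 ± 35.1 and 146 ± 85.9 CPM). Its fitted log2 change under anti-CTLA-4 was -2.05 (SE 2.02, adjusted p = 0.911) against controls and -1.95 (SE 2.01, adjusted p = 0.845) against anti-PD-1. Ifih1, which encodes MDA5, a sensor of long double-stranded RNA, stood at 35.2, 143 and 48.3 CPM in the controls, 36.0, 0.141 and 121 CPM under anti-CTLA-4 and 41.8, 108 and 77.2 CPM under anti-PD-1. It was low in a single library, anti-CTLA-4 replicate 2, and its groups overlapped. Ddx58, which encodes RIG-I, had 65.0, 70.7 and 47.6 CPM in the controls, 0.0985, 106 and 0.122 CPM under anti-CTLA-4 and 7.25, 2.30 and 10.4 CPM under anti-PD-1. All anti-PD-1 values were below all controls (log2 change -3.07, SE 2.83, adjusted p = 1), while anti-CTLA-4 held both the highest value and the lowest. Dhx58, the related regulator LGP2, reached 5 CPM in 1 control and 2 anti-PD-1 libraries, up to 67.0 CPM, and in no anti-CTLA-4 library.

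In the ISG15 and TRIM group, 11 of 12 values were at 5 CPM or more in controls, 6 of 12 under anti-CTLA-4 and 8 of 12 under anti-PD-1. Trim25, a ubiquitin ligase that activates RIG-I (ENSMUSG00000000275, chromosome 11, 88999376 to 89020293), was read at 281, 226 and 215 CPM in the controls, 408, 568 and 192 CPM under anti-CTLA-4 and 466, 71.6 and 103 CPM under anti-PD-1. The 2 highest anti-CTLA-4 values exceeded every control, but replicate 3 did not, and the anti-PD-1 libraries spread on both sides (log2 change under anti-CTLA-4 1.72, SE 1.15, adjusted p = 0.596 against controls). Trim30a, a TRIM protein that restrains inflammatory signalling, had 268, 170.2 and 339 CPM in the controls, 52.9, 0.647 and 126 CPM under anti-CTLA-4 and 146, 146 and 296 CPM under anti-PD-1. Every anti-CTLA-4 value lay below every value of both other groups, with means of 259 ± 84.6, 59.7 ± 62.7 and 196 ± 86.4 CPM. The fitted change was -1.93 (SE 1.72, adjusted p = 0.845) against controls and -1.73 (SE 1.71, adjusted p = 0.824) against anti-PD-1. Usp18, the protease that removes ISG15 from proteins and damps signalling at IFNAR2, was at 93.1, 42.9 and 52.6 CPM in the controls, 14.3, 0.0562 and 0.582 CPM under anti-CTLA-4 and 0, 0.0302 and 128 CPM under anti-PD-1. The controls were all at 42.9 CPM or more and the anti-CTLA-4 libraries all at 14.3 CPM or less, while anti-PD-1 ran from 0 to 128 CPM (adjusted p = 0.881 for anti-CTLA-4 against controls). Isg15 itself reached 5 CPM in only 3 libraries, anti-PD-1 replicate 1 and Control replicates 1 and 2, and was highest at 83.7 CPM in Control replicate 2.

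The IFIT proteins bind viral RNA and limit its translation, and their genes lie in a cluster on chromosome 19. At 5 CPM or more were 5 of 9 values in controls, 2 of 9 under anti-CTLA-4 and 6 of 9 under anti-PD-1. Ifit1 was read at 155, 149 and 65.6 CPM in the controls, 98.2, 0.0843 and 4.56 CPM under anti-CTLA-4 and 37.9, 439.8 and 91.9 CPM under anti-PD-1. Only 1 of the anti-CTLA-4 libraries was above 5 CPM, and the highest value was that of anti-PD-1 replicate 2 (adjusted p = 0.981 for anti-CTLA-4 against controls and 0.584 against anti-PD-1). Ifit2 had 0.0482, 20.6 and 0 CPM in the controls, 0, 0.0281 and 0 CPM under anti-CTLA-4 and 40.9, 0.0302 and 150.0 CPM under anti-PD-1. It was at 0.0281 CPM or less in all anti-CTLA-4 libraries and at 0.0302 CPM or more in all anti-PD-1 libraries, but both of these values are under the floor, so the order of the groups is not resolved at this depth (adjusted p = 0.333). Ifit3 reached 5 CPM in 3 libraries, 1 of each group, up to 73.8 CPM. Ifit1 and Ifit3 were both at 5 CPM or more in 2 libraries, and Ifit1 alone in 5. Of the 76-base windows in the longest Ifit3 transcript 40.7% also occur in Ifit3b, and of those in the longest Ifit1 transcript 5.11% in Ifit1bl2. Read pairs that lie wholly in such windows can be left uncounted as not unique.

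The OAS family makes a second messenger that switches on RNase L when double-stranded RNA is present. It was the least detected group, with 8 of 18 values at 5 CPM or more in controls, 9 of 18 under anti-CTLA-4 and 7 of 18 under anti-PD-1. Oas1b, a member of the Oas1 cluster linked to flavivirus resistance in mice (ENSMUSG00000029605, chromosome 5, 120812635 to 120824163), was read at 0.0482, 0.0643 and 0 CPM in the controls, 139, 497 and 0.0306 CPM under anti-CTLA-4 and 0.0392, 0.0604 and 0.584 CPM under anti-PD-1. It was abundant in 2 anti-CTLA-4 mice and at or under the floor in the third, in all 3 controls and in 2 anti-PD-1 mice, so the groups overlapped. It passed the edgeR threshold under anti-CTLA-4 against controls (adjusted p = 0.000836) and against anti-PD-1 (adjusted p = 0.00403), and DESeq2 gave it no adjusted p. Without anti-CTLA-4 replicate 2, its highest library, the adjusted p was 0.657 and 0.525, and no gene of the list was called. With 1 control left out, the adjusted p against controls was 0.0628, 0.0596 and 0.118 without replicates 1, 2 and 3. Against anti-PD-1 it was 0.109 without anti-PD-1 replicate 1. Over all alternatives tried it ran from 0.000315 to 0.657 against controls and from 0.00174 to 0.874 against anti-PD-1. No fold is given, because the controls lay under the floor of 3 counts. Macrophage and fibroblast marker sums were highest in the same replicate 2. Anti-CTLA-4 replicate 1, the other of the 2 mice, had the next highest macrophage sum, 1071 CPM, and 89.8 CPM of fibroblast markers. Their part in the Oas1b result was not tested.

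Oas3, which makes long oligoadenylate chains, stood at 6.82, 239 and 123 CPM in the controls, 14.5, 129 and 109.7 CPM under anti-CTLA-4 and 18.4, 0.212 and 142 CPM under anti-PD-1. Only anti-PD-1 replicate 2 was below 5 CPM. Oasl2, a family member with ubiquitin-like domains, had 82.0, 79.6 and 24.5 CPM in the controls, 51.3, 0 and 58.1 CPM under anti-CTLA-4 and 26.5, 0.0604 and 20.6 CPM under anti-PD-1 and was missing in the 2 libraries with the fewest genes. Oas1a, Oas2 and Oasl1 reached 5 CPM in 3, 3 and 1 libraries, with highest values of 34.5, 83.5 and 29.6 CPM. Of the 76-base windows in the longest Oas1a transcript 47.3% also occur in Oas1g, so Oas1a may be read low. Neighbouring genes of the family differed in detection. All 3 libraries that held Oas2 at 5 CPM or more also held Oas3, Oas3 was read alone in 5, and Oasl2 was read without Oasl1 in 6.

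Among 7 other antiviral effectors, 15 of 21 values were at 5 CPM or more in controls, 8 of 21 under anti-CTLA-4 and 15 of 21 under anti-PD-1. Samhd1, which degrades the nucleotides that reverse transcription needs (ENSMUSG00000027639, chromosome 2, 157097533 to 157135265), was read at 656, 1046 and 1024 CPM in the controls, 1079.6, 586 and 668 CPM under anti-CTLA-4 and 785, 500.3 and 1318 CPM under anti-PD-1. Every library held at least 500.3 CPM and the groups overlapped, with means of 908 ± 219, 778 ± 265 and 868 ± 415 CPM and fitted log2 changes of 0.46 (SE 0.74) under anti-CTLA-4 and 0.11 (SE 0.74) under anti-PD-1 (both adjusted p = 1). Bst2, or tetherin, which holds budding virions at the cell surface (ENSMUSG00000046718, chromosome 8, 71534255 to 71537456), was read at 1.66, 3.41 and 9.03 CPM in the controls, 122, 181 and 0.0918 CPM under anti-CTLA-4 and 23.1, 104 and 103 CPM under anti-PD-1. All anti-PD-1 values and 2 of 3 anti-CTLA-4 values were above every control. Its log2 change was 4.35 (SE 2.37, adjusted p = 0.846) under anti-PD-1 and 5.60 (SE 2.51, adjusted p = 0.432) under anti-CTLA-4 by edgeR, while DESeq2 called it higher in the latter comparison.

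Eif2ak2, which encodes PKR, a kinase that halts translation on double-stranded RNA, had 6.12, 135 and 51.0 CPM in the controls, 6.69, 0.0281 and 0.673 CPM under anti-CTLA-4 and 97.7, 97.2 and 93.9 CPM under anti-PD-1. The anti-PD-1 libraries were within 4 CPM of each other and all above the anti-CTLA-4 libraries, and the controls spanned both (adjusted p = 0.423 for anti-CTLA-4 against anti-PD-1 and 0.59 against controls by edgeR, with lower calls by DESeq2 in both). Adar, which edits adenosine in double-stranded RNA, was at 54.3, 99.0 and 13.0 CPM in the controls, 55.2, 0.0843 and 76.2 CPM under anti-CTLA-4 and 97.3, 0.332 and 227 CPM under anti-PD-1, and was low in the 2 libraries with the fewest genes. Mx1, a GTPase that blocks influenza virus and is defective in many laboratory strains, stood at 0, 40.4 and 46.3 CPM in the controls, 0.0328, 0 and 0.0612 CPM under anti-CTLA-4 and 56.0, 30.4 and 4.27 CPM under anti-PD-1. It was at 0.0612 CPM or less in all anti-CTLA-4 libraries and at 4.27 CPM or more in all anti-PD-1 libraries, and 1 of 3 controls was at 0 (adjusted p = 0.347 against anti-PD-1). Rsad2, or viperin, which makes a chain-terminating nucleotide, reached 5 CPM in 2 control, 2 anti-PD-1 and 0 anti-CTLA-4 libraries, up to 131 CPM. Cmpk2, which lies beside it on chromosome 12 with starts 12752 bases apart, was read in 1 library only, Control replicate 2 at 78.2 CPM, so Rsad2 stood without its neighbour in 3 of the 4 libraries that held it.

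The interferon-inducible GTPases, which attack membranes around intracellular pathogens and are strongly induced by interferon gamma, were the most completely detected group. At 5 CPM or more were 15 of 15 values in controls, 13 of 15 under anti-CTLA-4 and 15 of 15 under anti-PD-1, and both missing values were in anti-CTLA-4 replicate 2. Igtp, also known as Irgm3 (ENSMUSG00000078853, chromosome 11, 58199556 to 58207591), was read at 244, 362 and 485 CPM in the controls, 384, 651 and 536 CPM under anti-CTLA-4 and 639.8, 561 and 510.2 CPM under anti-PD-1. Each anti-PD-1 library was above each control, with means of 364 ± 120.4, 524 ± 134 and 570.3 ± 65.3 CPM, although the fitted log2 change of 0.90 (SE 0.90) had an adjusted p of 1. With anti-CTLA-4 it was 1.47 (SE 0.91, adjusted p = 0.528) and the groups overlapped. Per kb of exon, Igtp had the highest mean level of the list over all libraries, 240.3 CPM per kb, followed by Gbp2 with 109.8, Samhd1 with 93.0, Bst2 with 67.4, Ifi47 with 59.9 and Parp14 with 58.1. Of the 76-base windows in the longest Igtp transcript 8.22% also occur in Irgm2, and the 2 genes share 162 exon bases on the same strand.

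Gbp2 (ENSMUSG00000028270, chromosome 3, 142620602 to 142638008) and Gbp3 (ENSMUSG00000028268, chromosome 3, 142560026 to 142573209) are guanylate binding proteins whose genes are neighbours on chromosome 3, and both were above 5 CPM in all 9 libraries. Gbp2 stood at 174, 182 and 121 CPM in the controls, 232, 855 and 150.5 CPM under anti-CTLA-4 and 104, 408 and 259 CPM under anti-PD-1. The highest value was that of anti-CTLA-4 replicate 2, and the groups overlapped (log2 change under anti-CTLA-4 2.67, SE 1.10, adjusted p = 0.432 against controls). Gbp3 had 182, 59.6 and 69.8 CPM in the controls, 115, 242 and 75.1 CPM under anti-CTLA-4 and 83.5, 71.9 and 11.0 CPM under anti-PD-1, with the lowest value in anti-PD-1 replicate 3 (log2 change 2.21, SE 1.84, adjusted p = 0.708 for anti-CTLA-4 against anti-PD-1). Irgm1, a regulator of the other GTPases and of autophagy, was at 48.9, 186 and 59.4 CPM in the controls, 54.7, 0.112 and 194 CPM under anti-CTLA-4 and 64.4, 97.5 and 43.1 CPM under anti-PD-1. Ifi47, or Irg47, had 70.5, 123 and 234 CPM in the controls, 78.8, 0.253 and 458 CPM under anti-CTLA-4 and 109, 10.7 and 248 CPM under anti-PD-1. Both were missing in anti-CTLA-4 replicate 2 and present in the other 8 libraries. The sum of the 5 GTPases was 867 ± 131 CPM in controls, 1342 ± 446 CPM under anti-CTLA-4 and 1074 ± 74.0 CPM under anti-PD-1. The anti-CTLA-4 libraries had 865, 1749 and 1413 CPM, the highest in replicate 2.

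Parp9, Parp14 and Dtx3l encode ADP-ribosylating enzymes and a ubiquitin ligase partner that act in interferon signalling and DNA repair. At 5 CPM or more were 8 of 9 values in controls, 8 of 9 under anti-CTLA-4 and 9 of 9 under anti-PD-1. Parp14, which modifies STAT proteins (ENSMUSG00000034422, chromosome 16, 35832874 to 35871544), was read at 491, 609.9 and 674 CPM in the controls, 486, 28.7 and 301 CPM under anti-CTLA-4 and 800.4, 854 and 618 CPM under anti-PD-1. All anti-CTLA-4 values were below all values of both other groups, with means of 592 ± 92.9, 272 ± 229.9 and 758 ± 124 CPM. The fitted log2 change was -0.88 (SE 0.94, adjusted p = 0.958) against controls and -1.51 (SE 0.96, adjusted p = 0.491) against anti-PD-1. When CPM was scaled with TMM factors, which raise anti-CTLA-4 replicate 2, the separation from controls was lost and that from anti-PD-1 was kept. The nearest libraries of controls and anti-CTLA-4 were at 491 and 486 CPM.

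Parp9 had 0.12, 194 and 65.1 CPM in the controls, 68.5, 12.6 and 15.2 CPM under anti-CTLA-4 and 81.8, 306 and 77.3 CPM under anti-PD-1. Its anti-CTLA-4 values were all below its anti-PD-1 values, and the controls ranged from 0.120 to 194 CPM (adjusted p = 0.801 for anti-CTLA-4 against anti-PD-1). Dtx3l stood at 126, 167 and 134 CPM in the controls, 81.0, 0.112 and 227 CPM under anti-CTLA-4 and 166, 430.2 and 153 CPM under anti-PD-1, low only in anti-CTLA-4 replicate 2 (log2 change -1.46, SE 1.66, adjusted p = 0.889 against anti-PD-1). The starts of Parp9 and Dtx3l lie 681 bases apart on chromosome 16 on opposite strands, in a stretch where the genes overlap, and the 2 genes were both at 5 CPM or more in 7 libraries and singly in 1 each. They share 458 exon bases on opposite strands. Reads there can be told apart only if strand was used in counting, and the deposited counts are labelled first strand. The summed level of the 3 genes was 821 ± 183, 407 ± 320 and 1162 ± 384 CPM, with 41.4 CPM in anti-CTLA-4 replicate 2.

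Of 5 further interferon stimulated genes, 7 of 15 values were at 5 CPM or more in controls, 4 of 15 under anti-CTLA-4 and 10 of 15 under anti-PD-1. All 4 of the anti-CTLA-4 values came from replicate 1. Ifi35 had 0.0241, 0.0643 and 0 CPM in the controls, 14.7, 0 and 0 CPM under anti-CTLA-4 and 61.1, 12.8 and 101 CPM under anti-PD-1. Controls were all under the floor and anti-PD-1 all at 12.8 CPM or more (adjusted p = 0.823 by edgeR, with a higher call by DESeq2). Ifi44 stood at 0.0241, 0.0322 and 0 CPM in the controls, 71.0, 1.86 and 0.0918 CPM under anti-CTLA-4 and 0.353, 165 and 5.61 CPM under anti-PD-1. Its controls were all under the floor and all 6 libraries of treated mice above them, with 4 of the 6 over 1 CPM. The lowest of the treated values, 0.0918 CPM in anti-CTLA-4 replicate 3, is no more than the floor, so the order of anti-CTLA-4 and controls is not resolved at this depth (adjusted p = 0.432 under anti-CTLA-4 and 0.823 under anti-PD-1 by edgeR, with higher calls by DESeq2 in both). Rtp4, a chaperone of receptors, was at 42.7, 112 and 116 CPM in the controls, 111, 0.0562 and 0.122 CPM under anti-CTLA-4 and 43.8, 272 and 0.0584 CPM under anti-PD-1. It was below 1 CPM in 3 treated mice and at 42.7 CPM or more in the controls, and the groups overlapped. Xaf1, a proapoptotic protein, reached 5 CPM in 6 libraries and 100.2 CPM at most, and Slfn2, which maintains quiescence of T cells, in 2 libraries and 64.1 CPM at most.

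Set side by side, the comparison of anti-CTLA-4 with controls had 1 gene of the list without overlap and higher (Ifi44) and 4 lower (Zbp1, Usp18, Trim30a and Parp14), or 2.56% and 10.3% of 39 against 1.57% and 10.4% of tested genes. The fitted change was positive for 16 of 39 genes, against 50.2% of tested genes, and the median log2 change was -0.31, against 0.01 over all tested genes. That median was of the other sign without Control replicate 2 (0.40) and over genes that averaged 100 CPM or more (0.08, against 0.17 over all such genes). At an unadjusted p under 0.05 were 7 genes (17.9%, against 11.3%). DESeq2, which gave an adjusted p to 28 of the 41 genes, called Bst2, Ifi35 and Ifi44 higher and Eif2ak2, Mx1 and Rsad2 lower, where 13.3% of its genes were called.

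In the comparison of anti-PD-1 with controls 4 genes lay higher without overlap (Bst2, Igtp, Ifi35 and Ifi44; 10.3%, against 3.45% of tested genes) and 1 lower (Ddx58; 2.56%, against 7.33%). The fitted change was positive for 23 of 39, against 52.4%, and the median was 0.62, against 0.07. That median was 1.12 without Control replicate 2. It was of the other sign with limma voom (-0.03) and over genes that averaged 100 CPM or more (-0.15, against 0.08 over all such genes). DESeq2 called Ifi35, Ifi44 and Oas1a higher and none lower, where 11.4% of its genes were called. T cell marker sums were higher in all anti-PD-1 libraries than in all controls, and Cd4 was as well, at 808, 616 and 719 CPM against 324, 599 and 594 CPM, and their part in these differences was not tested.

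Between the antibodies, all 7 genes without overlap were lower under anti-CTLA-4: Zbp1, Trim30a, Ifit2, Mx1, Eif2ak2, Parp9 and Parp14 (17.9%, against 6.95% of tested genes in that direction), and 0 were higher, against 2.81%. For Ifit2 the values that separate the groups are under the floor, so 6 are left without it. The fitted change was positive for 15 of 39, against 49.1%, and the median was -1.46, against -0.05. The median lay between -1.84 and -0.47 with each library left out in turn, and was 0.09, of the other sign, over genes that averaged 100 CPM or more, against 0.15 over all such genes. At an unadjusted p under 0.05 were 6 genes (15.4%, against 14.1%). DESeq2 called Dhx58, Eif2ak2, Ifit2, Mx1 and Rsad2 lower, where 15.7% of its genes were called. Without the 2 libraries with the fewest genes, the count of genes without overlap was 14 and the same share of tested genes 34.4%, since fewer libraries had to be ordered. The sum of T cell markers and Cd4 were lower in all anti-CTLA-4 than in all anti-PD-1 libraries, and Cd4 had 439.9, 24.5 and 308 CPM against 808, 616 and 719 CPM. Their part in the difference of the interferon genes was not tested.

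**Figure D4:**
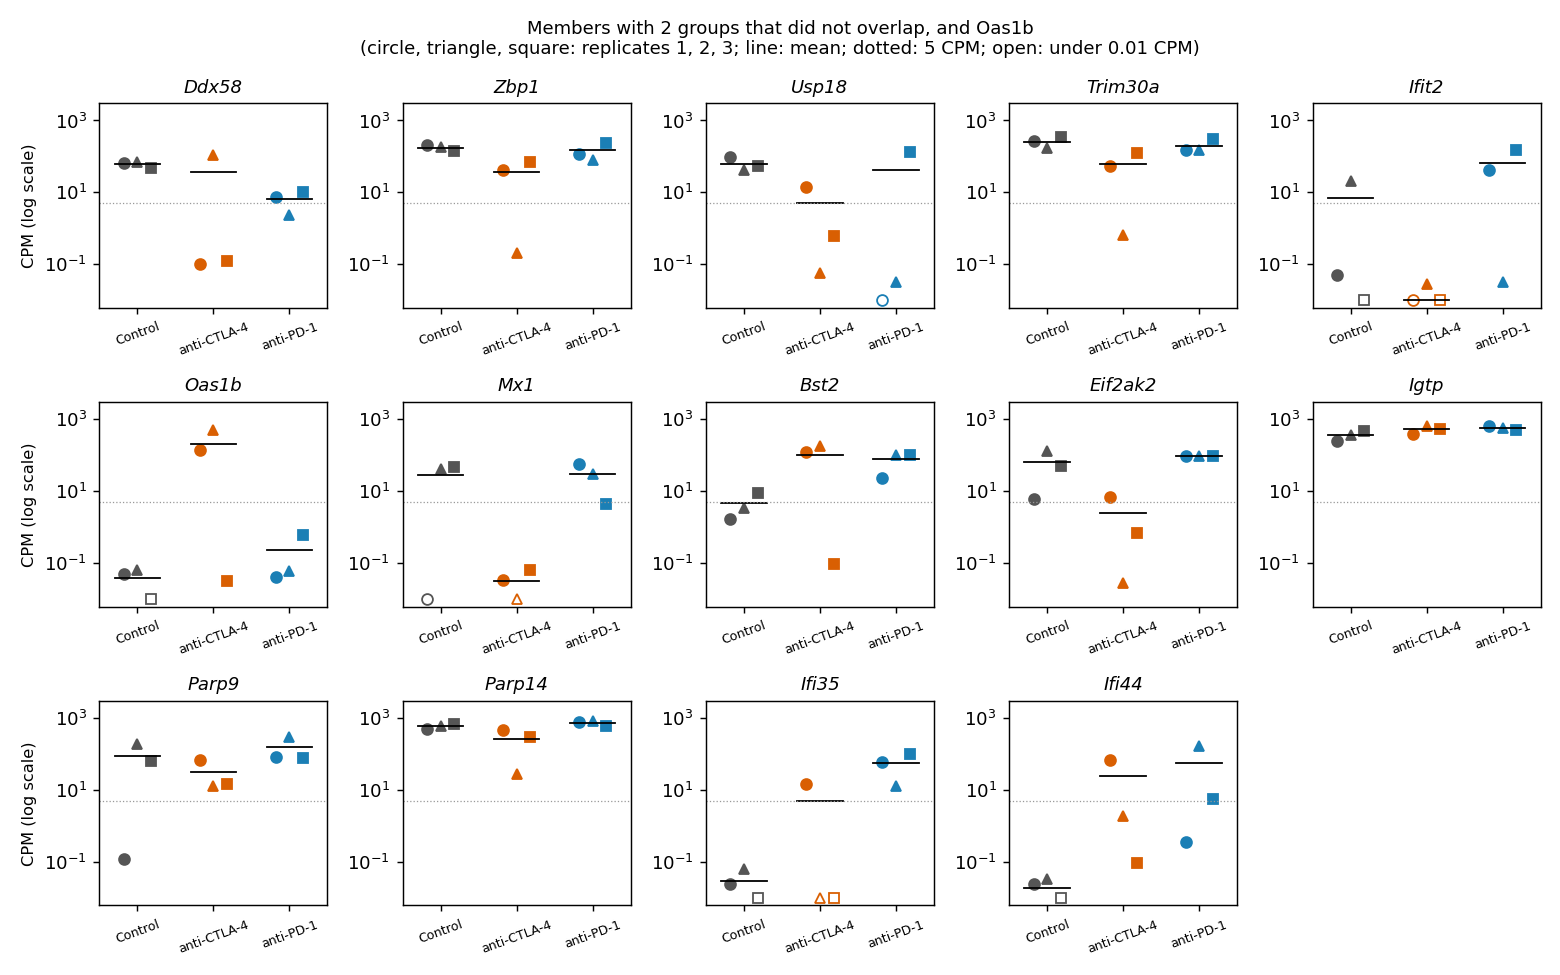
CPM on a log axis of the interferon stimulated genes whose groups did not overlap in at least 1 comparison, and of Oas1b, by group and replicate, with the mean as a line, 5 CPM dotted and values under 0.01 CPM drawn open at 0.01. Zbp1, Trim30a and Parp14 have their 3 anti-CTLA-4 points below all 6 others, while Bst2, Igtp, Ifi35 and Ifi44 have all control points below all anti-PD-1 points.

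Anti-CTLA-4 replicate 2 took up much of the low end of the list. It held the lowest value of 15 genes and the highest of 9. Of 24 genes that reached 5 CPM in at least 6 of the other 8 libraries, 14 were below 1 CPM there (58.3%, against 48.9% of tested genes chosen the same way): Stat2, Irf9, Ifih1, Zbp1, Trim30a, Ifit1, Oasl2, Eif2ak2, Adar, Irgm1, Ifi47, Dtx3l, Rtp4 and Xaf1. In the same library Irf7, Ddx58, Trim25, Oas1b, Oas2, Bst2, Igtp, Gbp2 and Gbp3 were at their highest of the 9. Anti-PD-1 replicates 3 and 2 held the highest value of 10 and 8 genes, and Control replicate 2 of 7, including the only values above 5 CPM of Cmpk2 and Oasl1.

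The ligands, receptors and other genes of the pathway were read the same way, and none of them was called in any of the 3 edgeR comparisons. Of 10 interferon genes only Ifng was tested, at 22.2, 4.25 and 0.224 CPM in the controls, 5.19, 0.0281 and 90.2 CPM under anti-CTLA-4 and 17.1, 47.4 and 15.3 CPM under anti-PD-1. Type I interferon genes such as Ifnb1 were at 0 in all 9 libraries, which allows up to 0.118 CPM in the shallowest. The interferon gamma receptor chain Ifngr1 was abundant throughout, at 650.3, 1126 and 1187 CPM in the controls, 911, 449 and 807 CPM under anti-CTLA-4 and 753, 539 and 759 CPM under anti-PD-1, while its partner Ifngr2 was at 0 in all 9. Ifnar1 had 60.3, 112 and 4.70 CPM in the controls, 118, 0.141 and 12.9 CPM under anti-CTLA-4 and 85.7, 0.0302 and 47.0 CPM under anti-PD-1. Ifnar2 stood at 15.2, 0 and 62.5 CPM in the controls, 0.459, 0.0281 and 7.07 CPM under anti-CTLA-4 and 0, 0 and 5.35 CPM under anti-PD-1. Both type I receptor chains were at 5 CPM or more together in Control replicate 1, anti-CTLA-4 replicate 3 and anti-PD-1 replicate 3.

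Of 11 genes of receptors, kinases and their signal transducers 9 were tested. Stat3 was read at 312, 571 and 121 CPM in the controls, 563, 538 and 623 CPM under anti-CTLA-4 and 346, 440.5 and 194 CPM under anti-PD-1, without overlap and higher under anti-CTLA-4 than under anti-PD-1. The factors of the fit lower anti-CTLA-4 replicate 1 (1.12) and raise anti-PD-1 replicate 2 (0.830), so this order holds for unscaled CPM only. Tyk2, the kinase of IFNAR1, was at 0.0612 CPM or less in all 3 anti-CTLA-4 libraries and at 98.4, 0.193 and 22.4 CPM in controls. Against anti-PD-1, 0 of the 9 tested genes of this list were lower without overlap under anti-CTLA-4, against 6.95% of tested genes, and 1 was higher (11.1%, against 2.81%). For anti-CTLA-4 against controls, 1 of the 9 was lower (11.1%, against 10.4%). Among 7 feedback genes, 5 tested, Pias1 had 22.2, 0.547 and 194 CPM in the controls, 238, 281 and 265 CPM under anti-CTLA-4 and 210.1, 93.5 and 165 CPM under anti-PD-1 and was higher without overlap under anti-CTLA-4 than in either other group. Cish, a cytokine-induced inhibitor, had 328, 129 and 219.7 CPM in the controls, 105, 153 and 39.4 CPM under anti-CTLA-4 and 125, 91.6 and 85.6 CPM under anti-PD-1 and was lower without overlap under anti-PD-1 than in controls. The factors of the fit lower Control replicate 2 (1.26) more than anti-PD-1 replicate 1 (1.16) and raise anti-PD-1 replicate 2 (0.830). The order of Cish therefore holds for unscaled CPM only. Pias1 and Cish are each 20% of the 5, against 1.57% and 2.81% of tested genes for Pias1 (higher than controls and anti-PD-1) and 7.33% for Cish. Of 14 genes that lead to interferon production, 10 were tested, with Tbk1 at 146, 147 and 177 CPM in the controls, 108, 0.0843 and 0.0306 CPM under anti-CTLA-4 and 77.0, 310.2 and 183 CPM under anti-PD-1 and Ikbke at 64.5, 34.4 and 71.4 CPM in the controls, 144, 0.112 and 237 CPM under anti-CTLA-4 and 118, 0.514 and 210.1 CPM under anti-PD-1. Both kinases were under 1 CPM in anti-CTLA-4 replicate 2.

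A list of 42 other type I interferon stimulated genes, 41 in the table and 36 tested, had 0, 1 and 0 higher and 7, 2 and 3 lower without overlap in the 3 comparisons (19.4%, 8.33% and 8.33% of the 36, against 11.9%, 10.8% and 9.76% of tested genes, for anti-CTLA-4 and anti-PD-1 against controls, then anti-CTLA-4 against anti-PD-1). The 2 with the highest mean CPM, which is not corrected for gene length, were Sp100, a nuclear body protein, at 1046, 2047 and 1074 CPM in the controls, 1354, 1664 and 1099 CPM under anti-CTLA-4 and 1550.4, 1858 and 1707 CPM under anti-PD-1, and Sp110, at 994, 1332 and 1093 CPM in the controls, 2042, 142 and 1342 CPM under anti-CTLA-4 and 1505, 1339 and 1297 CPM under anti-PD-1. Ly6a, the surface antigen Sca-1, was higher without overlap under anti-PD-1 than in both other groups, at 1143, 746 and 1219.8 CPM in the controls, 607, 329 and 749 CPM under anti-CTLA-4 and 1354, 1579 and 1366 CPM under anti-PD-1. The median log2 change of this list was -0.27, -0.20 and -0.0024, beside -0.31, 0.62 and -1.46 for the 39 genes above. Of 27 interferon gamma targets 22 were tested, with medians of 0.45, 0.23 and 0.11. B2m, the light chain of MHC class I, was at 1635, 1646 and 1983 CPM in the controls, 1605, 3069 and 817 CPM under anti-CTLA-4 and 1158, 2134 and 1693 CPM under anti-PD-1, and Gbp4 at 708, 1089.8 and 949 CPM in the controls, 948, 13.4 and 817 CPM under anti-CTLA-4 and 539, 324 and 706 CPM under anti-PD-1. Between anti-PD-1 and controls, Tgtp2 and the immunoproteasome subunit Psmb8 were higher and Gbp4 lower without overlap (13.6% of the 22, against 10.8% of tested genes). For Gbp4 the nearest libraries, anti-PD-1 replicate 3 and Control replicate 1, were at 706 and 708 CPM, in unscaled CPM. In the other 2 comparisons 0 of the 22 were separated, against 11.9% and 9.76%.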

How the data were processed

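RNA from 9 libraries of sorted ICOS+ CD4 T cells was read as 76-base pairs, per the labels' protocols, after RNeasy Micro extraction and NuGEN Ovation single-cell amplification. Raw counts per gene were deposited in 1 table, without normalization. Per the submitters' processing notes TopHat2, HTSeq, DESeq2 and the build GRCm38 were used. Not given in the sources used here are their versions and the annotation. The deposited counts are labelled first strand, and the strand setting is not described further. Rows that name no gene were left out of totals. Reads outside features took 27.1% to 42.0% of a library's counts, those not unique 24.3% to 31.1% and ambiguous ones 0.631% to 1.13%, so genes with near-identical copies may be read low.

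Gene counts summed to 25530333 to 41508589 per library. The reads carry no molecular identifiers, so the floor of 3 counts covers counting error only. edgeR 4.0.16 (R 4.3.3) was fitted to the whole table and all 9 libraries with the group as its only term (TMM factors, filterByExpr with a minimum count of 10, robust quasi-likelihood, Benjamini-Hochberg over 7858 genes). TMM factors ran from 1.06 to 1.26, except 0.407 for the second anti-CTLA-4 library and 0.830 for the second anti-PD-1 library. Approximate standard errors were obtained by dividing each change by the square root of its F. No fold is printed where a group was near 0. For 3 against 3 an exact permutation test cannot go below 0.1, so none is given. The fit was also run on simulated counts, where recovery of changes was required only at a spread far below that of these libraries. That run does not show how many changes the fit would find here.

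Alternatives were DESeq2 1.42.0, limma 3.58.1 voom, other scalings and filters, pairs of groups, a replicate block and left-out libraries. The interferon genes, the other lists and the tests were chosen with earlier results of these data known. Values in every library are given for genes at 5 CPM or more in at least 7 libraries, those called, those whose groups did not overlap with a mean of at least 5 CPM in one, and the one with the highest mean in each role group. From the other lists named in the text, a preset set of genes and the 2 with the highest mean are given, except 1 gene that is not reported here, and Tyk2, Ly6a, Tgtp2 and Psmb8 were named after their values were seen. Exon lengths, near copies and coordinates come from GENCODE M21 on GRCm38. The mice are separate, per the labels' protocols.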

Additional observations from a re-analysis of the deposited data

How the results depend on the processing

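The number of the 41 genes called was small and moved with the test. For anti-CTLA-4 against controls it was 1 with edgeR, 6 with DESeq2 and 0 with RLE factors, library totals only, a mean of at least 100 CPM, limma voom, the 2 groups alone or without the 2 libraries with the fewest genes. For anti-PD-1 against controls it was 0 with edgeR, where 2 genes had an unadjusted p under 0.05, and 3 with DESeq2. Between the antibodies it was 1 with edgeR, 5 with DESeq2 and 0 with RLE factors, library totals only, a mean of at least 100 CPM, limma voom, the replicate block or without those 2 libraries. Oas1b, the gene called with edgeR, averaged 70.8 CPM, so the filter at 100 CPM left it out. It was also not in the fit of anti-CTLA-4 and controls alone. In those settings it could not be called, and their 0 says nothing of it. With each library left out in turn the counts were 0 to 1, 0 to 0 and 0 to 1. The cause of these moves was not tested, except that leaving out libraries removes samples and a stricter filter removes genes. Same-numbered libraries did not deviate together (correlations of -0.0345 to 0.0182), which gives no sign that the numbers pair the mice. Libraries of different numbers were not compared, so pairing is not excluded. With the replicate number as a block, 1, 0 and 0 genes were called. All 15 fold changes that fell back over the threshold were those of Oas1b, all 10 that passed it did so with DESeq2, and 1513 of 1538 alternative values of 90 fold changes kept their side of the threshold, 130 of them with the other sign and neither past it.

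RLE factors moved the median log2 change of all tested genes to 0.56, 0.26 and 0.45 in the 3 comparisons, and that of the interferon genes to -0.02, 0.69 and -0.88. With library totals only, the medians were -0.34, -0.12 and -0.21, and -0.54, 0.22 and -1.28. Genes whose groups did not overlap were counted under alternatives chosen after seeing the data. With 1 library left out they were 6 to 13 for anti-CTLA-4 against controls, 6 to 10 for anti-PD-1 against controls and 8 to 13 between the antibodies, against 5, 5 and 7 with all libraries. Tested genes counted the same way were 19.6% to 25.8%, 18.5% to 22.9% and 17.0% to 20.8%, since fewer libraries have to be ordered. Of the single libraries, anti-CTLA-4 replicates 1 and 3, Control replicates 1 and 3 (anti-CTLA-4 against controls), each anti-PD-1 library and Control replicates 2 and 3 (anti-PD-1 against controls), and anti-CTLA-4 replicates 1 and 3 and anti-PD-1 replicate 2 (between the antibodies) moved the count by over 1.5 times. Without the 2 libraries with the fewest genes the counts were 6, 8 and 14, beside 21.9%, 20.998% and 34.4% of tested genes. With TMM factors in the CPM they were 4, 5 and 7, beside 11.4%, 10.8% and 9.99%. The mean numbers of genes at 5 CPM or more stayed within 1 SD of their group under every alternative. With 1 library left out they ran from 27.5 to 32 in controls, 17 to 25 with anti-CTLA-4 and 28 to 33 with anti-PD-1. Leaving out 1 of 3 libraries cannot move a mean by 1 SD, so these ranges do not show how stable it is. Depth limits a gene read at 0 to under 0.0723 to 0.118 CPM, by counting error only.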
